A study of Mus musculus with 24 samples.

Results

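Morulae injected to knock out Ttf1 were compared with wild-type morulae across all measured genes. The comparison uses 8 of the series' 24 RNA-seq libraries, the 4 titled Ttf1 KO and the 4 titled NC at the morula stage, chosen by title. Each library held 10 pooled embryos. Zygotes came from superovulated B6D2F1 females aged 3 to 4 weeks and B6D2F1 males. For the knockouts, the zygote cytoplasm received Cas9 protein at 100 ng/µL with 3 guide RNAs at 50 ng/µL each, in medium containing the agent abbreviated CB, and the embryos were cultured in KSOM. The wild-type libraries carry the genotype WT. The labels do not explain NC or say whether these embryos were injected. The strain entry of the labels counts upward from library to library (B6D2F5, B6D2F13 and so on), so the strain is given here as the design text has it. Injected pools can hold embryos with several Ttf1 alleles, and the fraction edited was not measured in these files. The other 16 libraries are morulae with Zfp622 knocked out in the same way, and late 2-cell embryos of all 3 kinds, with 4 libraries each.

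Ttf1 encodes transcription termination factor 1, a nucleolar protein that binds terminator sequences in the ribosomal DNA repeats. There it stops RNA polymerase I and arrests replication forks, and it recruits chromatin remodellers to the ribosomal RNA gene promoter. Disturbed ribosome assembly is known in other cells to free ribosomal proteins that bind Mdm2, the ubiquitin ligase that keeps p53 low, so that p53 builds up and switches on genes of growth arrest and cell death. At the morula stage the blastomeres compact, the outer cells polarise, and the first choice between trophectoderm and inner cell mass begins.

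The 8 libraries held from 14363767 to 17807596 read pairs assigned to genes. Levels are given as CPM, the counts of a gene per 1000000 counts of its library, with library sizes scaled by TMM within the 12 morula libraries. By their alignment names, all 4 Ttf1 knockout libraries were read on lane 1 and every other morula library on lane 2. The late 2-cell libraries were split in the same way. Lane and Ttf1 knockout cannot be told apart in any difference between the Ttf1 knockout and another group. The stage interaction sets the knockouts of both stages, all on lane 1, against the wild types of both stages, all on lane 2. The knockout pools are compared with each other within lane 1. The part of the lane in the results was not tested. Wild-type libraries 3 and 4 also carry a second index number, which no knockout library has. The labels give each library as a replicate and do not say whether pools came from separate days, so the p-values measure the spread between pools. All 10 morula marker genes were detected in both groups. Their summed level was 4675 ± 428 CPM in wild type and 3696 ± 55.6 CPM in knockout (SD, n = 4 each). Most of the difference lay in Nanog (means of 620 CPM in wild type and 191 CPM in knockout) and Dppa5a (3275 and 2879 CPM). Pou5f1 stood at 106.2 and 106.5 CPM, and Tead4 was higher in knockout, at 81.9 and 109.8 CPM. Mitochondrial transcripts took 2.24% to 2.45% of counts in the wild-type libraries and 3.14% to 3.76% in the knockouts. The part of these differences in the results was not tested.

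Because genes activated by p53 form a marked group among those that rose, the p53 elements in their promoters are shown. The RefSeq windows (GRCm38.p6, 250 bases before to 50 after each annotated start) were searched for the p53 consensus, which is 2 decamers separated by at most 1 base and reads the same on both strands. At most 1 mismatch was found in 36 of 32851 windows (0.11%). Of 54 members of the p53 target lists with a window, 4 had such a site, and they are printed with the decamers in capitals and up to 4 flanking bases.
Cdkn1a, chr17:29090924-29090951, plus strand: tcagGAACATGTCTTGACATGTTCagcc
Ccng1, chr11:40755458-40755485, minus strand: ggccAGACCTGCCCGGGCAAGCCTtggc
Rps27l, chr9:66946292-66946319, plus strand: tggcGGGCTTGTTGAGACTTGTCCgggc
Gtse1, chr15:85859941-85859968, plus strand: ccggGAGCAAGTTGGGGCTTGCCTctga
The sites lie 51 to 32 bases before the start in Cdkn1a, 195 to 176 before it in Ccng1, 117 to 98 before it in Rps27l, and across it in Gtse1. All 4 genes rose in the knockout. Over all 9932 tested genes with a window, 7 had such a site, of which 5 rose and 2 fell. A match is a description of letters and not a shown binding site. Over the same genes, a site with at most 3 mismatches was found in 4.18% of those that rose, 3.44% of those that fell and 3.85% of those not called.

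Ttf1 itself (ENSMUSG00000026803, chromosome 2, 29060262 to 29087656, plus strand, GRCm38) was read first in every library. Wild-type libraries 1 to 4 held 41.3, 44.8, 42.7 and 43.8 CPM, and knockout libraries 24.6, 27.2, 23.9 and 25.9 CPM. No knockout library reached the lowest wild-type level. The knockout level was 0.589 of wild type (log2 fold change −0.77, SE 0.10, edgeR adjusted p = 3.47e-05). Counts cover whole exons, so transcripts with small insertions or deletions are counted with intact ones. In the Zfp622 knockout morulae Ttf1 stood at 48.3 ± 6.94 CPM (SD, n = 4).

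Over all genes, 5833 of 14865 tested (39.2%) passed an edgeR adjusted p of 0.05 and are referred to as called. Of all tested genes, 3170 (21.3%) rose and 2663 (17.9%) fell, while the median log2 fold change was 0.04. Among the 7010 genes with a mean of at least 10 CPM over the 8 libraries, 205 rose at least 2-fold and 98 fell by that much, and 42 rose at least 4-fold against 2 that fell. The direction went with the wild-type level, which is also the base of the fold change. How much of this trend the grouping by that level sets was not tested. Among genes at 100 CPM or more in wild type, 326 rose and 731 fell of 1907. Among genes from 1 to 10 CPM, 1075 rose and 473 fell of 5463. Below 1 CPM the counts were 883 and 15 of 2457, but the filter on low counts let in many such genes through another group that held them higher. Leaving out wild-type libraries 3 and 4, which carry the second index number, left 3553 genes called. The 4 knockout and 4 wild-type values did not overlap in 5428 genes (36.5%), with the knockout above in 2841 and below in 2587.

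**Figure D1:**
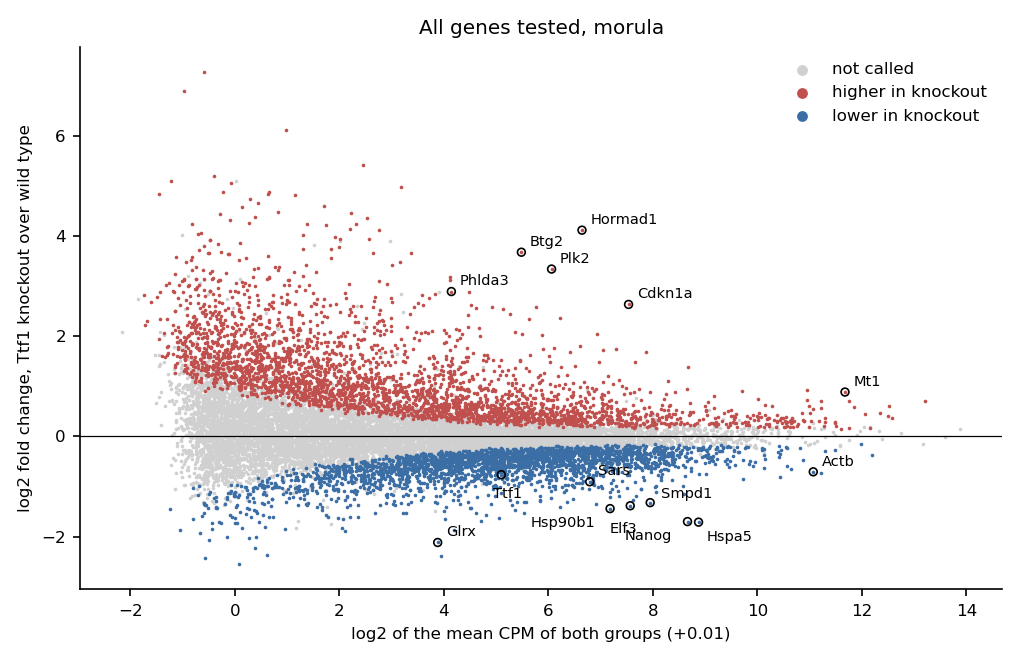
Each point is a tested gene, with the log2 of its mean CPM over both groups on the x axis and the log2 fold change of Ttf1 knockout over wild type on the y axis. Red points rose (3170 genes) and blue points fell (2663 genes), and circles mark genes described in the text; at low levels the filter on low counts kept many genes through the group where they are high, so the spread there is partly set by the filter.

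Genes of the p53 pathway were higher in their majority, from the factor itself to its targets. Trp53, which encodes p53, stood at 122, 133, 137 and 138 CPM in wild-type libraries 1 to 4 and at 179, 152, 153 and 176 CPM in the knockouts. The groups did not overlap, and the level rose 1.25-fold (log2 fold change 0.32, SE 0.08, edgeR adjusted p = 0.00488). Mdm4, a partner of Mdm2 that restrains p53, held 78.8, 62.9, 62.7 and 64.1 CPM in wild type and 115, 93.8, 112 and 95.4 CPM in knockout. It rose 1.55-fold (edgeR adjusted p = 0.00129), with every knockout library above every wild-type one. In wild-type late 2-cell embryos Mdm4 stood at 2714 ± 210 CPM and Trp53 at 47.8 ± 9.52 CPM (SD, n = 4 each, scaled over 24 libraries). Among 12 tested genes of p53 and its regulators, 7 rose and 1 fell, against 21.3% and 17.9% of all genes. The phosphatase gene Ppm1d was among the risers at a log2 fold change of 1.08, and the acetyltransferase gene Kat5 was the one that fell, by 0.46 on the log2 scale, a call lost without the second-index libraries (edgeR adjusted p = 0.0555).

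Targets of growth arrest rose in 11 of 17 tested members (64.7%, beside 21.3% of all genes) and fell in none (1 without knockout library 4). Their median log2 fold change was 1.12. Plk2, a kinase gene induced by p53, went from 16.4, 7.95, 13.2 and 10.5 CPM in wild type to 135, 138, 82.2 and 130 CPM in knockout. Btg2, which encodes an anti-proliferative factor, held 8.10, 6.72, 7.69 and 3.45 CPM in wild type and 92.3, 117, 60.9 and 61.5 CPM in knockout. In both genes the lowest knockout library lay well above the highest wild-type one. Plk2 rose 10.1-fold (log2 fold change 3.34, SE 0.28, edgeR adjusted p = 1.39e-05) and Btg2 12.8-fold (3.67, SE 0.45, edgeR adjusted p = 0.000196). Gtse1, whose product binds p53 and microtubules, rose 1.94-fold and Ckap2, a spindle gene, 1.37-fold.

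Of 20 tested targets of cell death, 15 rose and none fell, with a median of 1.05. Phlda3, a repressor of Akt signalling, held 3.47, 3.22, 5.66 and 4.32 CPM in wild type and 35.3, 36.1, 24.03 and 29.2 CPM in knockout. The groups were far apart, and the level rose 7.41-fold (edgeR adjusted p = 1.48e-05). Fas, the gene of a death receptor, was near 0 in wild type, at 0.0453 ± 0.0554 CPM, and at 3.88 ± 0.421 CPM in knockout (SD, n = 4 each). Fas passed the filter on low counts only through other groups, so a fall could not have been called. Bax, Bid and Bcl2l11, all genes of the BCL2 family, were not called, at log2 fold changes of 0.16, −0.06 and −0.01.

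Targets of repair and metabolism went both ways, with 14 of 27 higher (51.9%, beside 21.3% of all genes) and 5 lower (18.5%, beside 17.9%). Lpin1, a phosphatidate phosphatase gene of lipid metabolism, held 7.83, 5.96, 5.71 and 8.58 CPM in wild type and 28.1, 32.1, 21.3 and 21.5 CPM in knockout, a 3.66-fold rise without overlap (edgeR adjusted p = 1.21e-05). Cpt1a, which imports fatty acids into mitochondria, went the other way. Its wild-type libraries held 32.9, 23.6, 25.7 and 27.4 CPM and its knockout libraries 8.81, 10.8, 11.7 and 13.97 CPM, a level of 0.414 of wild type (edgeR adjusted p = 1.07e-05). Ddb2, a sensor of ultraviolet damage and a p53 target in human cells, fell to 0.535 of its wild-type level of 12.97 ± 0.562 CPM. Ddb2 lies on chromosome 2, described further on.

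**Figure D2:**
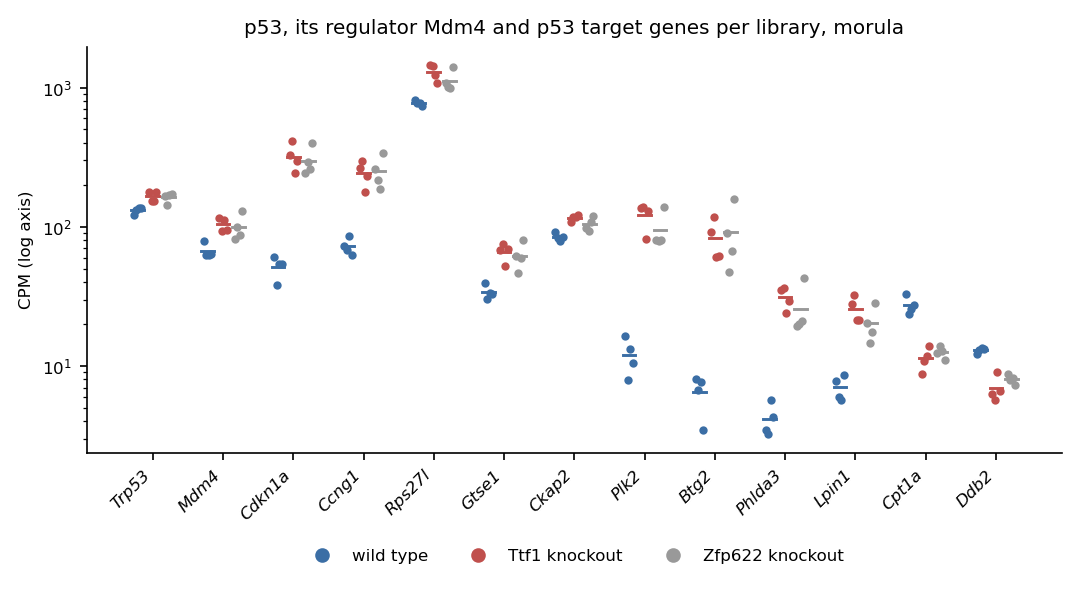
CPM on a log axis for Trp53, its regulator Mdm4 and 11 p53 target genes, 1 point per library and a line at the group mean. All 4 Ttf1 knockout libraries lie above all 4 wild-type libraries for 11 of the 13 genes, and below them for Cpt1a and Ddb2; Zfp622 knockout libraries are shown for their level only.

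Genes that copy DNA were lower in their majority. Of 50 tested genes of replication and nucleotide supply, 26 fell and 6 rose, with a median of −0.24. Mcm5, a subunit of the replicative helicase, held 121, 114, 138 and 134 CPM in wild type and 75.5, 71.9, 72.1 and 64.1 CPM in knockout. Mcm10, which helps to start the helicase, held 157, 156, 148 and 150 CPM in wild type and 75.96, 63.5, 92.3 and 88.5 CPM in knockout. Neither gene overlapped between the groups, and the levels were 0.559 (edgeR adjusted p = 5.91e-05) and 0.524 (edgeR adjusted p = 3.93e-05) of wild type. The 6 rises in this list became 1 without knockout library 2, 2 without wild-type library 1, 2 or 3, and 3 without wild-type library 4 or knockout library 4. The falls numbered 15 without the second-index libraries.

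Among the cyclins of G1, Ccne1, which drives entry into S phase, fell from 427 ± 25.0 to 233 ± 37.7 CPM (SD, n = 4 each; edgeR adjusted p = 0.000372). Ccnd3 fell to 0.507 of wild type (edgeR adjusted p = 0.00477), a call lost without the second-index libraries (edgeR adjusted p = 0.0571). Rb1, the retinoblastoma tumour suppressor gene, went from 0.545 ± 0.235 to 6.60 ± 2.76 CPM and Ccnd2 from 0.657 ± 0.434 to 3.38 ± 0.901 CPM. Both were below 1 CPM in wild type and passed the filter on low counts through other groups. Of the 28 tested genes of this list, 10 rose (35.7%) and 6 fell (21.4%), beside 21.3% and 17.9% of all genes.

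Sensors and repairers of DNA breaks fell in 18 of 48 tested members (37.5%, beside 17.9% of all genes) and rose in 4 (8.33%, beside 21.3%). Without the second-index libraries these counts were 9 and 2. Both Ku subunits, which bind broken ends, were lower. Xrcc5 fell from 19.96 ± 0.947 CPM in wild type to 8.74 ± 2.01 CPM in knockout, and Xrcc6 fell from 33.8 ± 2.94 to 19.95 ± 1.79 CPM. Brca2, a gene of homologous recombination, was one of the 4 that rose. Its wild-type libraries held 59.4, 57.0, 61.0 and 70.8 CPM and its knockout libraries 96.1, 98.5, 142 and 124 CPM (log2 fold change 0.89, SE 0.13, edgeR adjusted p = 8.46e-05). Kinases and spindle genes of mitosis fell in 26 of 43 (60.5%) and rose in 3 (6.98%), and 16 fell without the second-index libraries. Aurkc, an Aurora kinase gene of germ cells and early embryos, stood at 68.1 ± 15.6 CPM in wild type and 27.4 ± 2.16 CPM in knockout (SD, n = 4 each; edgeR adjusted p = 0.000392).

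Enzymes that charge transfer RNA formed the list with the highest share of falls among those with at least 12 tested members. Of 23 cytosolic aminoacyl-tRNA synthetases and their scaffold proteins, 20 fell (87.0%, against 17.9% of all genes) and none rose, with a median log2 fold change of −0.44. Sars, the seryl enzyme, held 144, 139, 149 and 145 CPM in wild type and 76.2, 76.6, 76.9 and 78.5 CPM in knockout. The knockout values spanned less than 3 CPM and lay far below the wild type, at 0.533 of its level (log2 fold change −0.91, SE 0.08, edgeR adjusted p = 1.42e-06). Lars, Vars and Eprs, the leucyl, valyl and glutamyl-prolyl enzymes, fell to 0.532, 0.541 and 0.659 of wild type. The 3 members not called, Aimp1, Aimp2 and Eef1e1, encode scaffold proteins of the multi-enzyme complex and no charging enzyme; Aimp1 passed in 7 alternatives, among them DESeq2 (adjusted p = 0.0276). The mitochondrial enzymes fell in 7 of 17 members (41.2%), or 4 without the second-index libraries. They rose in 1, a call lost in 14 of 17 alternatives, leaving out any library but knockout library 1 among them.

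The gene of Atf4, a transcription factor that switches on amino acid synthesis and synthetase genes under stress, rose. It held 142, 149, 167 and 160 CPM in wild type and 240, 254, 238 and 223 CPM in knockout, without overlap (log2 fold change 0.63, SE 0.12, edgeR adjusted p = 0.000578). Its list went both ways, with 10 of 25 members higher (40.0%, beside 21.3% of all genes) and 7 lower (28.0%, beside 17.9%). Cth, which makes cysteine, rose from 324 ± 14.6 to 516 ± 68.5 CPM, while Shmt2, the mitochondrial serine enzyme, fell from 36.2 ± 3.51 to 12.6 ± 2.68 CPM (edgeR adjusted p = 0.000154). Cytosolic ribosomal protein genes, many of which have processed copies that can share reads, rose in 50 of 84 (59.5%) and fell in 1 (1.19%). Their median was 0.26, and 27 rose without the second-index libraries.

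The machinery that Ttf1 acts on had a median log2 fold change of 0.02, beside 0.04 for all genes. Of 23 genes of RNA polymerase I and ribosomal DNA transcription, 7 were called (30.4%, beside 39.2% of all genes), 2 higher and 5 lower (21.7%, beside 17.9%). The falls numbered 3 without the second-index libraries; the rises numbered 4 without knockout library 1 and 1 without knockout library 4 or wild-type library 3. Polr1b, the second largest subunit of the polymerase, was the largest fall, from 124 ± 7.45 to 74.6 ± 8.55 CPM (edgeR adjusted p = 1.38e-05), and it lies on chromosome 2. Rrp8, a nucleolar methyltransferase gene, fell from 101 ± 4.29 to 67.5 ± 5.42 CPM. Ubtf and Rrn3, factors that start polymerase I transcription, were not called, at log2 fold changes of −0.07 and 0.18.

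Chaperones of the endoplasmic reticulum fell in 15 of 26 members (57.7%, beside 17.9% of all genes) and rose in 3 (11.5%, beside 21.3%). The rises numbered 1 without wild-type library 3. The median was −0.44, and these genes varied between pools. Hspa5, the chaperone BiP, held 1052, 549, 550 and 725 CPM in wild type and 148, 182, 151 and 396 CPM in knockout. Knockout library 4 stood apart from the other 3, though still below the lowest wild-type library. Xbp1, a transcription factor of the unfolded protein response, had the same highest library, with 75.6, 56.0, 63.6 and 80.8 CPM in wild type and 13.9, 15.8, 24.6 and 41.1 CPM in knockout (edgeR adjusted p = 0.00365). Hsp90b1 fell to 0.368 of wild type with an edgeR adjusted p of 0.0225. That call was lost, with edgeR adjusted p from 0.0545 to 0.0769, in the 8-library fit, without the second-index libraries, and without wild-type library 1 or knockout library 1, 2 or 3.

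The cytosolic folding machine TRiC and its partner prefoldin fell in 9 of 17 members (52.9%, beside 17.9% of all genes) and rose in 3 (17.6%, beside 21.3%). Its subunit gene Cct5 held 1107, 1092, 1126 and 1060 CPM in wild type and 757, 712, 739 and 788 CPM in knockout, a fall to 0.683 with little spread in either group (edgeR adjusted p = 6.59e-06). Lysosomal genes fell in 17 of 35 members (48.6%) and rose in 4 (11.4%). Hexa, a hexosaminidase subunit, held 111, 120, 136 and 131 CPM in wild type and 53.5, 40.9, 57.4 and 56.4 CPM in knockout (edgeR adjusted p = 2.45e-06). Lamp2, a lysosomal membrane protein gene, rose instead, from 420 ± 62.3 to 734 ± 158 CPM.

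Autophagy genes split into 9 higher (36.0%, beside 21.3% of all genes) and 8 lower (32.0%, beside 17.9%) of 25. Map1lc3a, an LC3 protein of the autophagosome membrane, held 204, 243, 258 and 257 CPM in wild type and 473, 447, 466 and 400 CPM in knockout (log2 fold change 0.89, SE 0.08, edgeR adjusted p = 1.42e-06). Sqstm1, the cargo receptor p62, moved the other way, from 245 ± 32.2 to 120 ± 23.0 CPM (edgeR adjusted p = 0.000397). Neither gene had overlapping groups.

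**Figure D3:**
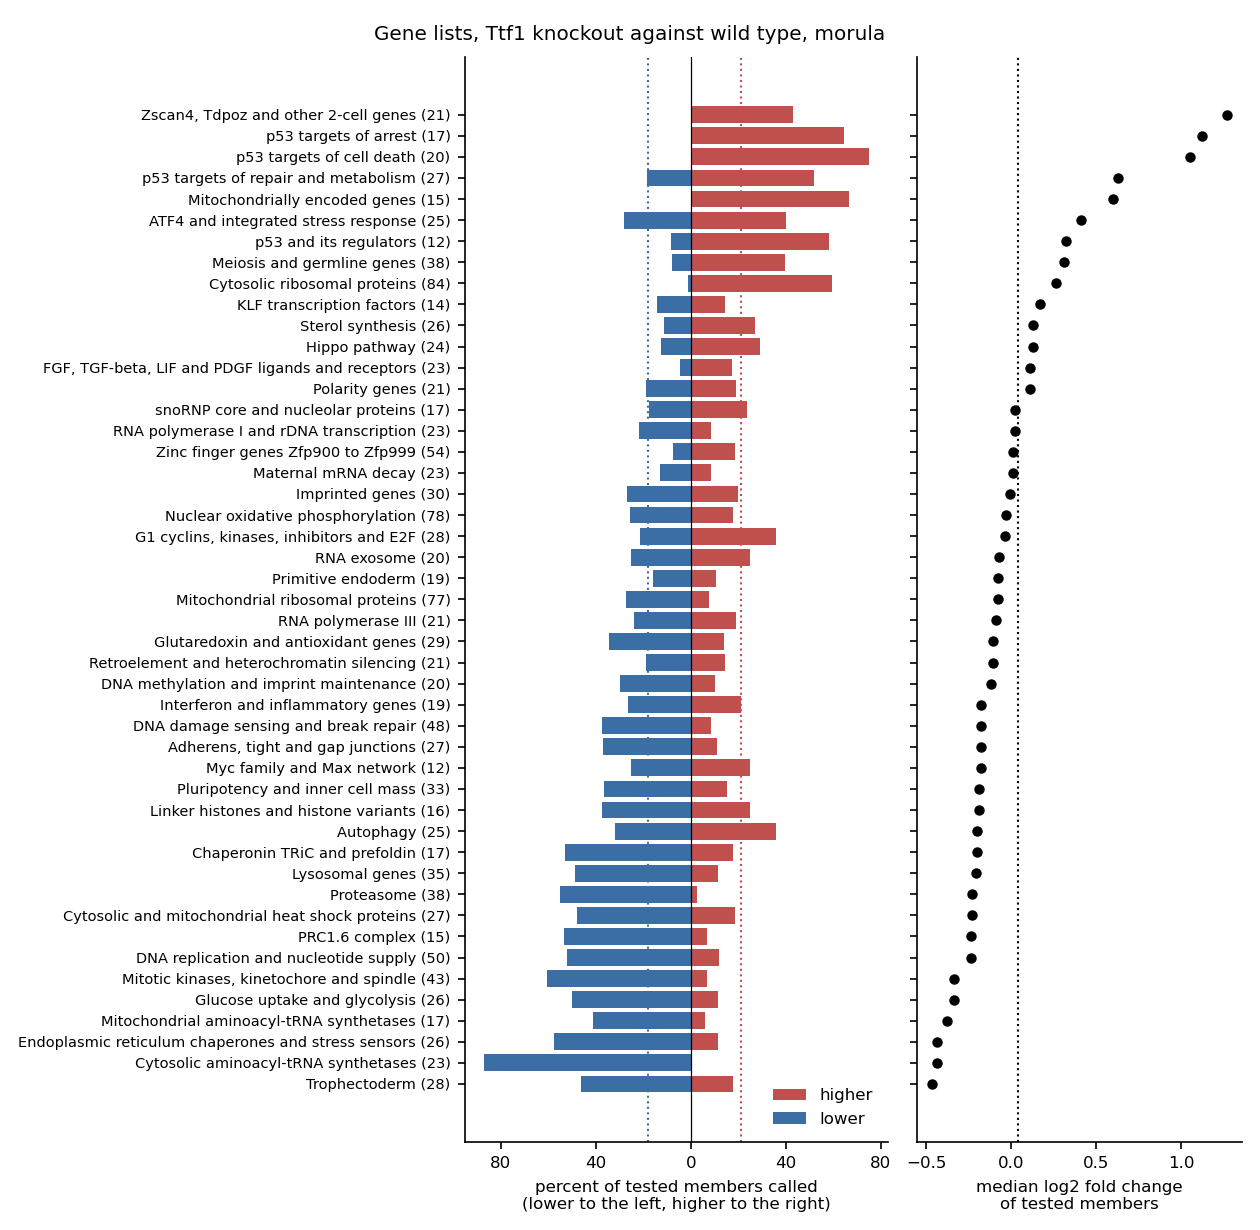
Lists with at least 12 tested members (their number in parentheses), with the percent of members that rose (red, to the right) and fell (blue, to the left) and, on the right, the median log2 fold change. Dotted lines give the same values over all tested genes, 21.3%, 17.9% and 0.04; the cytosolic aminoacyl-tRNA synthetases reach 87.0% lower and the p53 targets of cell death 75% higher.

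Genes of the trophectoderm, the outer lineage that forms the placenta, had the lowest median of the lists with at least 12 tested members, −0.47. Of 28 members, 13 fell (46.4%, beside 17.9% of all genes) and 5 rose (17.9%, beside 21.3%). In bulk RNA, fewer cells of a type and less RNA per cell cannot be told apart. Elf3, an epithelial transcription factor gene, held 234, 287, 294 and 283 CPM in wild type and 106.6, 77.1, 109.2 and 127 CPM in knockout, without overlap (log2 fold change −1.39, SE 0.20, edgeR adjusted p = 0.00025). Krt8, a keratin of simple epithelia, fell from 148 ± 14.7 to 71.7 ± 7.71 CPM. Fabp3, a fatty acid binding protein gene, fell to 0.391 of wild type, a call lost without the second-index libraries (edgeR adjusted p = 0.0833). Tead4, the transcription factor required for this lineage, rose from 81.9 ± 8.67 to 110 ± 3.19 CPM (edgeR adjusted p = 0.00058).

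Pluripotency genes fell in 12 of 33 members (36.4%, beside 17.9% of all genes) and rose in 5 (15.2%, beside 21.3%). The rises numbered 3 without wild-type library 2 or 3 or knockout library 4. Tet2, which oxidises methylated cytosine, held 212, 227, 197 and 201 CPM in wild type and 101, 80.4, 121 and 121 CPM in knockout (edgeR adjusted p = 0.000102). Klf17, a factor of the early cleavage embryo, rose from 17.9 ± 0.255 to 44.0 ± 5.96 CPM. Dppa3, a maternal factor that protects methylation of the maternal genome, was already abundant and rose from 4389 ± 116 to 6056 ± 535 CPM (edgeR adjusted p = 0.000196).

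Of 27 tested genes of adherens, tight and gap junctions, which hold blastomeres together at compaction, 10 fell (37.0%, beside 17.9% of all genes) and 3 rose, and 5 fell without the second-index libraries. Cldn7, a tight junction claudin gene, fell from 294 ± 41.1 to 141 ± 20.3 CPM, whereas Cdh1, the E-cadherin of compaction, was not called at −0.18. Genes of the actin skeleton were not taken as a list, and 3 were named for the size of their fall. Both cytoplasmic actin genes fell, Actb from 2667 ± 198 to 1632 ± 281 CPM and Actg1 from 1775 ± 102 to 1008 ± 110 CPM; they are similar in sequence and have processed copies, so their reads may be partly shared. Wdr1, which helps cofilin to disassemble actin filaments, fell to 0.359 of wild type (edgeR adjusted p = 0.000215).

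Genes usually read in germ cells rose in 15 of 38 tested members (39.5%, beside 21.3% of all genes) and fell in 3 (7.89%, beside 17.9%). Without the second-index libraries 9 rose, and without knockout library 4 5 fell. Hormad1, an axis protein of meiotic chromosomes, held 12.3, 5.28, 11.4 and 14.5 CPM in wild type and 212, 261, 154 and 130 CPM in knockout. Tex15, needed for meiosis and transposon silencing in the male germ line, went from 1.29, 0.823, 1.24 and 2.07 CPM to 17.6, 14.8, 16.4 and 9.80 CPM. In neither gene did the groups come near each other (17.3-fold, edgeR adjusted p = 3.92e-05, and 10.7-fold, edgeR adjusted p = 1.44e-06). Both were high in wild-type late 2-cell embryos, at 127 ± 24.9 CPM for Hormad1 and 76.9 ± 15.7 CPM for Tex15 (SD, n = 4 each, scaled over 24 libraries). Summed sperm and spermatid markers went from 0.554 ± 0.0739 CPM in wild type to 1.32 ± 0.554 CPM in knockout, with every knockout library above every wild-type one (SD, n = 4 each; two-sided exact permutation p = 0.0286, 0.0343 adjusted over 6 sums). Most of the difference was in Prm2, a protamine gene, at 0.0171 and 0.696 CPM, while Akap4, Smcp, Tnp1 and Tnp2 were at 0 in all 8 libraries. The part of these markers in the list's counts was not tested. Rec8, a cohesin gene of meiosis, was among the 3 that fell, by 1.06 on the log2 scale, a call lost without the second-index libraries (edgeR adjusted p = 0.0922).

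Of 19 tested interferon and inflammatory genes, 4 rose (2 without knockout library 2 or without the second-index libraries) and 5 fell. These are 21.1% and 26.3%, beside 21.3% and 17.9% of all genes. H2-D1, a major histocompatibility class I gene, held 50.9, 66.9, 54.8 and 53.8 CPM in wild type and 29.3, 19.5, 20.9 and 17.8 CPM in knockout (edgeR adjusted p = 4.58e-06), and its relative H2-K1 fell from 67.0 ± 5.88 to 34.7 ± 9.78 CPM (edgeR adjusted p = 0.00502). The 2 genes are close relatives in a hybrid strain, so the split of reads between them is uncertain. The metallothionein gene Mt1, whose product binds zinc and copper, was among the most abundant risers. It held 2114, 2308, 2276 and 2513 CPM in wild type and 4372, 4205, 4203 and 4217 CPM in knockout, a 1.85-fold rise (edgeR adjusted p = 5.95e-07). Sat1, the polyamine acetylating enzyme, rose from 2618 ± 295 to 4281 ± 885 CPM. Glrx, a glutaredoxin gene, fell to 0.23 of its wild-type level of 23.95 ± 4.64 CPM (edgeR adjusted p = 0.000116).

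The same contrast was made at the late 2-cell stage with its own 4 knockout and 4 wild-type libraries, and the difference between the 2 stages was tested as an interaction over 24 libraries. The change differed between stages in 3992 of 18864 genes (21.2%), with the more positive change in the morula in 2361 (12.5%) and at the late 2-cell stage in 1631 (8.65%). At the late 2-cell stage itself 389 genes (2.06%) were called in that fit, 206 higher (1.09%) and 183 lower (0.97%). Ttf1 was an exception to the larger morula change. Its log2 fold change was −1.45 at the late 2-cell stage, with 73.95 ± 4.27 CPM in wild type and 27.1 ± 3.82 CPM in knockout, and the interaction was 0.68 (SE 0.15, edgeR adjusted p = 0.0016).

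Many genes described above were among them. The interaction was 3.66 for Plk2, 4.12 for Btg2, 2.49 for Cdkn1a and 4.10 for Hormad1 on the log2 scale. It was −1.02 for Sars, −1.65 for Hspa5, −0.92 for Tet2 and −1.88 for Smpd1, the lysosomal acid sphingomyelinase. H2-D1 was higher in knockout at the late 2-cell stage (log2 fold change 0.88, edgeR adjusted p = 0.0166) and lower in the morula, with an interaction of −2.25 (edgeR adjusted p = 1.29e-06). Dppa3 went the opposite way, lower at the late 2-cell stage by 0.49 on the log2 scale (edgeR adjusted p = 0.00203) and higher in the morula. For Trp53 the interaction was 0.04 (edgeR adjusted p = 0.895). Of the 23 cytosolic synthetase genes, 18 had a more negative change in the morula and none a more positive one. At the late 2-cell stage 1 of these was called higher and none lower. Of the 84 cytosolic ribosomal protein genes, 51 had a more positive change in the morula and 1 a more negative one. At the late 2-cell stage 19 of these were called lower in knockout and none higher. The interaction was positive for 9 of 17 arrest targets and 9 of 20 death targets of p53, and negative for none. Some genes that rose in the knockout morula were normally higher at the earlier stage. Wild-type late 2-cell embryos held 883 CPM of Brca2, 101 CPM of Rb1 and 454 CPM of Klf17, well above wild-type morulae. For Plk2 and Ccnd2, at 15.1 and 0.827 CPM, the level was near that of wild-type morulae.

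Against Zfp622 knockout morulae, from zygotes injected with Cas9 and guides to another gene, far fewer genes stood apart. Zfp622 encodes a zinc finger factor that joins the assembly of the large ribosomal subunit. In the fit of 12 morula libraries 34 of 14865 genes were called (0.229%), 19 higher and 15 lower in the Ttf1 knockout. This number was unstable. It was 323 with DESeq2, 368 without the filter on low counts, and 15 with the replicate number as a block. Leaving out Ttf1 knockout libraries 1 to 4 in turn gave 150, 3, 2 and 15 genes, and leaving out Zfp622 knockout libraries 1 to 4 gave 4, 14, 7 and 119. The comparison crosses the lanes. A small number of calls does not show that the knockouts act alike.

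Ttf1 led the genes lower in its own knockout (log2 difference −0.93, SE 0.10, edgeR adjusted p = 0.00041). Clp1, a kinase gene of RNA 3′ end formation and tRNA splicing, held 66.4, 77.8, 95.4 and 88.4 CPM in the Ttf1 knockout and 116, 148, 140 and 123 CPM in the Zfp622 knockout, with wild type at 166 ± 24.6 CPM. Cdc123, which helps to assemble initiation factor eIF2, stood at 15.9 ± 2.05 and 24.6 ± 2.32 CPM in these knockouts (edgeR adjusted p = 0.0398). Among genes higher in the Ttf1 knockout, Usp14, a deubiquitinase of the proteasome, held 903, 1047, 792 and 843 CPM in the Ttf1 knockout and 520, 531, 510 and 531 CPM in the Zfp622 knockout. Wild type lay between them at 655 ± 20.1 CPM (log2 difference between knockouts 0.78, SE 0.07, edgeR adjusted p = 9.46e-05). Sfxn4, a mitochondrial sideroflexin gene, held 21.7, 19.9, 19.2 and 15.7 CPM in the Ttf1 knockout, 11.5 ± 1.59 CPM in the Zfp622 knockout and 4.57 ± 0.326 CPM in wild type. The genes of the p53 and synthetase lists named above were not called between the knockouts; Plk2 stood at 122 ± 26.4 and 94.9 ± 29.8 CPM and Sars at 77.03 ± 1.01 and 90.1 ± 9.95 CPM.

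Position along the genome also differed in the Ttf1 knockout. Of the 15 genes lower than in the Zfp622 knockout, 8 lie on chromosome 2, the chromosome of Ttf1 (Ttf1, Ivd, Clp1, Cdc123, Ckmt1, Rae1, Depdc7 and Uqcc1), and of the 19 higher none does. This chromosome holds 1122 of all 14865 tested genes. Against wild type, 320 of 1122 tested genes on chromosome 2 fell (28.5%) and 131 rose, while on the other autosomes 2279 of 13164 fell (17.3%) and 2893 rose. The median log2 fold change was −0.15 on chromosome 2 and 0.05 on the others, a gap of −0.19 that became −0.08 without the filter on low counts. The chromosome was singled out after its values were seen, and its genes are not independent replicates, so no p is given.

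Over 555 chromosome 2 genes with at least 10 CPM, the median level relative to wild type minus that of the other autosomes was −0.077, −0.237, −0.196 and −0.227 on the log2 scale in Ttf1 knockout libraries 1 to 4. Zfp622 knockout libraries lay between −0.055 and 0.009, and wild-type libraries between −0.004 and 0.012. Library 1 had the smallest shift, close to the lowest group mean of another autosome (−0.082). Distal to Ttf1 the medians were −0.087, −0.259, −0.209 and −0.245, and proximal to it, over only 84 genes, 0.015, −0.124, −0.077 and −0.096. At the late 2-cell stage knockout libraries 1 to 4 stood at −0.097, −0.123, 0.037 and −0.188, with a mean of −0.093 ± 0.095 (SD, n = 4) and library 3 on the other side of 0. Group means of other autosomes there ran from −0.032 to 0.054. Among lists described above, falls on chromosome 2 numbered 0 of 20 for the cytosolic synthetases, 2 of 26 for replication, 6 of 26 for mitosis and 4 of 13 for trophectoderm. Over all tested genes, 320 of 2663 falls lay on chromosome 2.

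**Figure D4:**
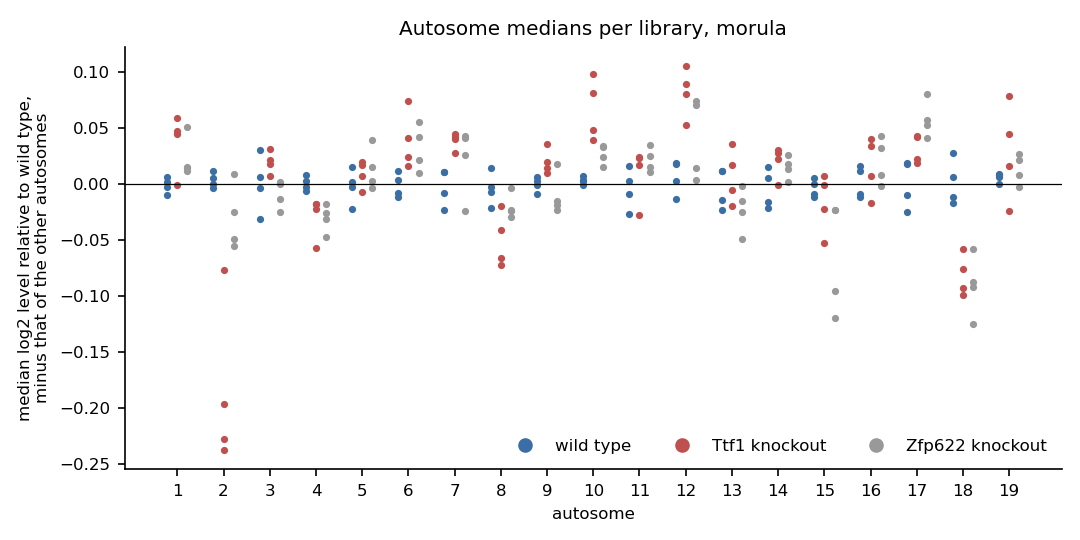
Median log2 level of each autosome's genes relative to wild type, minus that of the other autosomes, for 4 libraries per group (blue wild type, red Ttf1 knockout, grey Zfp622 knockout). On chromosome 2, knockout libraries 2 to 4 lie from −0.237 to −0.196 and library 1 at −0.077.

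The knockout pools varied more among themselves than the wild-type pools. Over 5256 genes with at least 20 CPM the median SD of log2 CPM was 0.143 in knockout and 0.1 in wild type, and 69.3% of genes had the larger SD in knockout. Across genes, log2 levels correlated at r = 0.976 to 0.980 between knockout libraries, at 0.984 to 0.987 between wild-type libraries and at 0.945 to 0.967 between the groups. Genes are not independent replicates. Knockout library 4 was nearest to wild type on the first principal component, which held 55.4% of the variance.

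Among the most variable genes was Obox8, a homeobox gene of a multigene family whose reads may be shared. It held 20.4, 27.0, 80.7 and 29.3 CPM in knockout and 6.36 ± 1.26 CPM in wild type. Id2, an inhibitor of helix-loop-helix factors that marks outer cells, held 39.0, 66.6, 39.0 and 9.86 CPM in knockout and overlapped with wild type (22.3, 13.8, 6.45 and 16.6 CPM; edgeR adjusted p = 0.0856, and 0.0186 without knockout library 4). Tat, the tyrosine aminotransferase gene, held 33.3, 7.23, 25.4 and 30.8 CPM in knockout, below every wild-type library but not called (edgeR adjusted p = 0.0638). The mitochondrial gene mt-Atp8 was at 12.1 CPM in knockout library 3 and between 213 and 319 CPM in the others. It overlaps mt-Atp6, so its reads may be split.

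**Figure D5:**
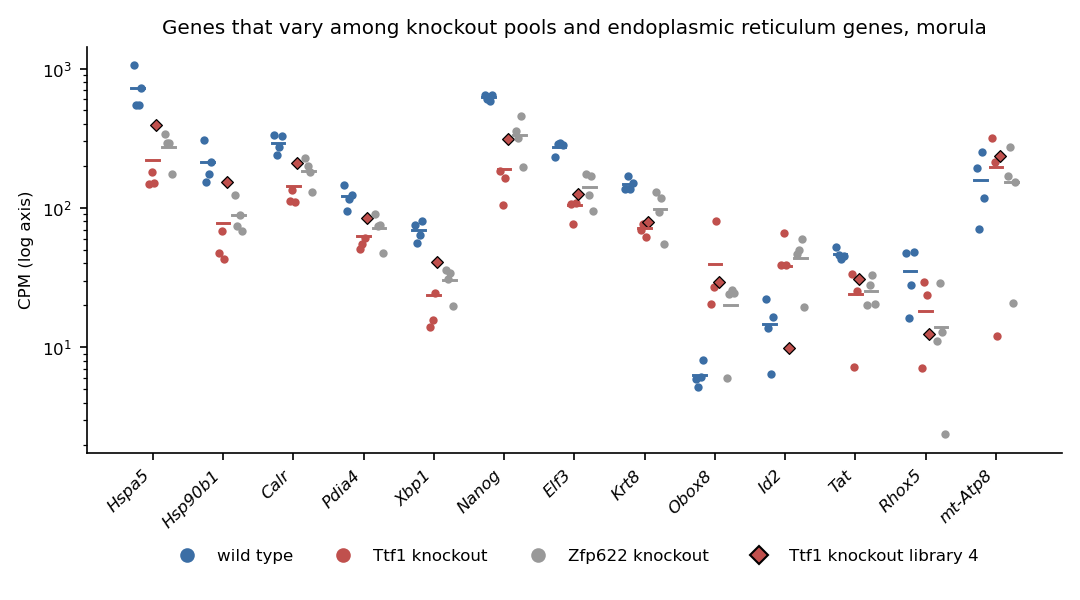
CPM on a log axis for endoplasmic reticulum chaperones, lineage genes and genes that vary among pools, 1 point per library with a line at the group mean. The diamond marks Ttf1 knockout library 4, which is the highest knockout library for Hspa5 (396 CPM), Hsp90b1, Calr, Pdia4, Xbp1, Nanog, Elf3 and Krt8 and the lowest for Id2 (9.86 CPM).

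Markers of other cells that a pool could carry were also summed. Blood markers rose from 11.7 ± 1.93 to 26.0 ± 6.88 CPM (SD, n = 4 each; two-sided exact permutation p = 0.0286, the smallest that 4 against 4 allow; 0.0343 adjusted over 6 sums). The sum was carried by Cd68, which is also lysosomal and went from 9.60 to 18.2 CPM, and Hba-a1, while Fcer1g, Hbb-bs, Hbb-bt, S100a8 and S100a9 were at 0 in all 8 libraries. Late 2-cell markers went from 27.7 ± 9.90 to 93.04 ± 77.98 CPM, with knockout library 2 at 210 CPM (exact permutation p = 0.0286, adjusted 0.0343). The difference of 65.3 CPM was 26.5 CPM without that library. Cumulus and granulosa markers stood at 0.148 and 0.397 CPM (exact permutation p = 0.143), with Fshr, Has2 and Ptx3 at 0.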

How the data were processed

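The authors deposited raw counts of read pairs per gene, 1 file per library. Per the file headers, counting used featureCounts 2.0.1 on exons of Ensembl release 99 with no strand option, and per the submitters' processing notes reads were aligned with HISAT2 2.2.1 to GRCm38. Genes that overlap or lie antisense to each other therefore cannot be separated, and multi-mapping reads were not counted. Libraries were made from polyA RNA of 10 embryos by template switching and sequenced as paired 150-base reads, per the labels' protocols. The number of count columns belonging to other samples was 0.

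Counts of the 12 morula libraries were filtered (filterByExpr), TMM-scaled and tested with edgeR 4.0.16 (robust quasi-likelihood, Benjamini-Hochberg adjusted p of at most 0.05, R 4.3.3 with limma 3.58.1). A prior count of 2 was used only for the log2 CPM behind SDs, correlations and principal components. The stage interaction used all 24 libraries. Alternatives were DESeq2 1.42.0, other scalings and filters, other sets of libraries, a replicate block and leaving out each library. Summed markers were compared by a two-sided exact permutation test. Chromosome medians, promoter searches and figures used Python 3.11.15, numpy 2.4.6, pandas 2.3.3 and matplotlib 3.10.9. In 1 set of simulated counts, 13809 genes were tested, with 67, 67 and 66 genes changed 1.5-fold, 2-fold and 4-fold. The gene test recovered 35.8%, 64.2% and 89.4% of them, and 8.03% of its calls were false (11 genes). Far fewer genes were changed there than the 39.2% called in the data. Both rates depend on that share, so they do not carry over to the 5833 calls. Same-numbered libraries did not deviate together (correlations of −0.125 to 0.092 between group deviations), so numbers were not taken as pairs.

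Gene lists (61, of which 58 had at least 3 tested members) and the comparison itself were chosen with earlier results of these data known. Genes were named by rule: the largest changes in fold and in CPM among called genes at 10 CPM or more, the members of each list with the smallest p, the largest differences from the Zfp622 knockout and the most variable genes. Further list members and the chromosome 2 genes were chosen after their values were seen. Counting error and the number of 4 pools per group limit the precision.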

Additional observations from a re-analysis of the deposited data

Results flagged for a closer look

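In groups of 4 libraries, 1 library stood further from the other 3 than Dixon's limit allows in 10 of 188 groups examined, and chance flags about 1 group in 20. The knockout libraries so marked were the lowest for Plk2 (82.2 CPM) and Wdr1 (16.8 CPM) and the highest for Hspa5 (396 CPM), Obox8 (80.7 CPM) and Mt1 (4372 CPM). The wild-type libraries were the highest for Mdm4 (78.8 CPM) and the lowest for Sfxn4 (4.085 CPM). Summed late 2-cell markers (210 CPM, library 2) and summed blood markers (36.2 CPM, library 1) were highest in a knockout library that stood apart, and the lowest knockout total count, 14420604, did so too.

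The Ttf1 knockout change differed between the morula and the late 2-cell stage, by the interaction test, in 3992 genes. Among genes described above, the log2 change was more positive in the morula for Ttf1 (0.68), Plk2 (3.66), Btg2 (4.12) and Dppa3 (0.95). It was more negative in the morula for Sars (−1.02), Hspa5 (−1.65), Nanog (−2.56), Tet2 (−0.92), H2-D1 (−2.25) and Smpd1 (−1.88). Nanog was near the floor at the late 2-cell stage, at 0.891 CPM in wild type and 1.58 CPM in knockout, and was not called there (edgeR adjusted p = 0.589). The SE of its interaction was 0.70, and its log2 fold change in the morula was −1.70.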

How the results depend on the processing

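The number of genes called against wild type was 5532 to 6283 with DESeq2, other scalings, no filter, no robust fit, the replicate block, 8 libraries or all 24, and 4930 to 5773 when 1 library was left out. Without wild-type libraries 3 and 4 it was 3553 (1869 higher, 1684 lower), with 2 wild-type libraries left in the fit, and 58.8% of the main calls were shared. With a log2 fold change of at least 1 as well it was 1814 (1516 higher, 298 lower). Against the Zfp622 knockout (34, 19 higher and 15 lower) the counts were 323 (182, 141) with DESeq2, 368 (203, 165) without the filter, 57 (48, 9) with all 24 libraries, 9 (7, 2) with 8 libraries and 7 (6, 1) without the second-index libraries. With total counts as the scaling 11 were higher. Leaving out 1 library gave 2 to 150 (1 to 99 higher, 1 to 51 lower). The cause was not tested. The stage difference numbered 2132 (1319, 813) without the second-index libraries. With the replicate number as a block, which the pairing check did not bear out, the counts were 5532 against wild type, 15 (8, 7) against the Zfp622 knockout and 3788 between stages. Of 92 genes named with a value, 79 were called. The alternatives were followed gene by gene only for those that belong to a gene list. Among these called genes, Ccnd3, Cd68, Fabp3, Hsp90b1, Kat5, Rec8 and Slc2a3 lost the call under at least 1 alternative. The others followed kept direction and call, and none reversed. Named genes outside the lists, Ttf1, Mt1, Actb and Clp1 among them, were not followed. Genes not called whose sign changed were Bcl2l11 (0.07 without the second-index libraries, −0.16 to 0.11 leaving out 1 library), Bid (0.15, −0.17 to 0.05), Ubtf (0.02), Aimp2 (−0.09 to 0.00) and mt-Atp8 (−0.29 with the block, −0.04 to 0.70). Leaving out 1 library, the knockout minus wild-type difference ranged from 1.00 to 1.21 percentage points for the mitochondrial share, and in CPM from −1169 to −823 for morula, 26.5 to 81.1 for late 2-cell, 0.581 to 0.969 for sperm and 10.9 to 15.6 for blood markers, with 12 of these 40 values still past the threshold (adjusted exact permutation p from 0.0429 to 0.206). The chromosome 2 gap, an alternative added after seeing the data, ranged from −0.24 to −0.08 against wild type and from −0.19 to −0.12 against the Zfp622 knockout. The median of all genes moved between 0.013 and 0.085. Total counts ran from 14363767 to 17807596 in the 8 libraries compared and from 10538723 in the 24 of the stage test, and 4 pools of 10 embryos a group limit what small changes could be called.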

Other observations

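Noncoding genes moved more in 1 direction than protein-coding genes. Of 497 tested lincRNA genes 210 rose (42.3%) and 19 fell, and of 326 antisense genes 119 rose and 7 fell, while of 11931 protein-coding genes 2469 rose and 2484 fell. Counting ignored strand, so reads of antisense genes and their partners cannot be told apart. The classes were not matched for level. Genes of any class below 1 CPM in wild type rose in 883 and fell in 15 of 2457, and many of these entered through the filter on low counts. The part of level and filter in the shares of noncoding genes was not tested.

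Glucose uptake and glycolysis fell in 13 of 26 tested genes (50.0%, beside 17.9% of all genes) and rose in 3 (11.5%, beside 21.3%). Without the second-index libraries 8 fell. Slc2a3, a glucose transporter gene, held 217, 160, 205 and 213 CPM in wild-type libraries 1 to 4 and 132, 87.0, 85.1 and 66.1 CPM in knockout (edgeR adjusted p = 0.01), a call lost without the second-index libraries (edgeR adjusted p = 0.0742). Subunits of PRC1.6, a repressor of germline genes, fell in 8 of 15 (53.3%) and rose in 1 (6.67%), and 3 fell without the second-index libraries. Imprinted genes fell in 8 of 30 (26.7%, beside 17.9% of all genes) and rose in 6, a share near that of all genes (21.3%). The rises numbered 3 without wild-type library 3. Of 21 polarity genes 38.1% were called, beside 39.2% of all genes, with 4 higher (1 without the second-index libraries) and 4 lower. Primitive endoderm genes were called in 5 of 19 (26.3%, beside 39.2% of all genes), 2 higher and 3 lower.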
